A study of Mus musculus with 9 samples.

Results

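The comparison was between flat mounts of choroid and retina from C57BL/6 mice given ranibizumab in a hydrogel (BetP-Gel@Ran, 3 libraries) and those of mice with choroidal neovascularization (CNV, 3 libraries), which is 6 of the 9 libraries of the series. The samples were chosen by their labels alone. Ranibizumab is an antibody fragment that binds vascular endothelial growth factor A, and the gel samples were taken 3 months after an injection into the vitreous. The sample titles name both the gel and ranibizumab, while the treatment entry names only the gel. The labels used here do not say whether the gel mice carried CNV, at what time the CNV and untreated tissue was taken, how CNV was made, or the age and sex of the mice. Nor do they say whether each library is a different mouse, so the spread behind every p-value is that between libraries and may be technical only. The 3 untreated libraries are given beside the results as background, with no test.

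In choroidal neovascularization, vessels of the choroid grow through Bruch's membrane toward the pigment epithelium and the photoreceptors. The growth is driven by vascular endothelial growth factor and is accompanied by neutrophils, macrophages and reactive glia. Neutrophils follow CXC chemokines that signal through Cxcr2, and their release from bone marrow is promoted by granulocyte colony-stimulating factor, the product of Csf3.

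The deposited table held FPKM values, that is fragment counts scaled by gene length and library size, for 54532 genes. The 6 libraries held 16990118 to 18753737 reads that could be assigned to genes. No pair of replicates agreed within sampling noise, since the chi-square per gene between replicates was 15.0 to 42.9. In a principal component analysis of the 6 libraries, the leading component took 65.6% of the variance. CNV libraries 1, 2 and 3 lay at -27.0, -35.5 and -8.58 on it and gel libraries at 21.0, 29.6 and 20.6, so CNV replicate 3 was the CNV library nearest the gel group. The dissected tissue held more than retina and choroid: the cornea and surface epithelium list, which holds Krt12 and Aldh3a1, took 3.08 to 3.54% of reads in CNV and 4.30 to 4.95% in gel libraries. Its part in the results below was not tested. In bulk tissue, fewer cells of a type and less RNA per cell cannot be told apart. Overlapping genes on opposite strands and near-identical copies, such as the Sprr2 genes, the gamma crystallins and the haemoglobin genes, may share reads and their single values are uncertain.

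A gene was tested when 3 or more of the 6 libraries reached 1 FPKM. A gene that reached it in the 3 libraries of 1 group only could differ in 1 direction only, set by the filter. Examples below are Cxcl2, Cxcl3, Csf3, Il24, Trem1, Ptgs2, Mmp12, Esm1, Apln, Tnc, Dynap and Anxa10, tested through CNV. Flt1, Slc17a6, Gad1 and Isl1 were tested through the gel group. Such genes are included in the counts below. Of 13602 such genes, 1266 (9.31%) differed at an adjusted p under 0.05 in limma's test on log2(FPKM + 1), with Benjamini-Hochberg adjustment. In the gel group 568 (4.18%) were higher and 698 (5.13%) lower than in CNV. A difference of at least 1 on the log2 scale was found for 259 of them (1.9%), of which 67 (0.493%) were higher and 192 (1.41%) lower. The median difference over all tested genes was -0.0036. On this scale, which adds 1 to each value, the change of genes near or under 1 FPKM is understated. In all 1266 called genes the 3 gel libraries lay wholly above or wholly below the 3 CNV libraries, as they did in 5050 of all tested genes (37.1%).

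The number of calls depended on single libraries. Leaving out CNV replicate 3 raised the count to 2966, of which 1720 were new, and kept 1246 of the 1266 calls. Leaving out any of the other 5 libraries lowered it: 113 genes were called without CNV replicate 1, 219 without CNV replicate 2, 272 without gel replicate 1, 117 without gel replicate 2 and 178 without gel replicate 3. CNV replicate 3 was the CNV library nearest the gel group in 1008 of the 1266 called genes (79.6%). No called gene changed sign in any of these fits, and all 1266 kept an unadjusted p under 0.05 in each of them. With all 6 libraries 4248 genes (31.2%) had an unadjusted p under 0.05, and 2374 (17.5%), 1083 higher (7.96%) and 1291 lower (9.49%), had it with 1 sign in all 7 fits. The median standard error of the called genes was 0.107 without CNV replicate 3 and 0.126 to 0.137 without 1 of the others. A set of 85 genes (0.625%), 32 higher (0.235%) and 53 lower (0.39%), kept an adjusted p under 0.05 in all 7 fits, and these are said to hold. By contrast, 914 calls were kept in only 1 of the 6 reduced fits, and for 905 of them that was the fit without CNV replicate 3.

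**Figure D1:**
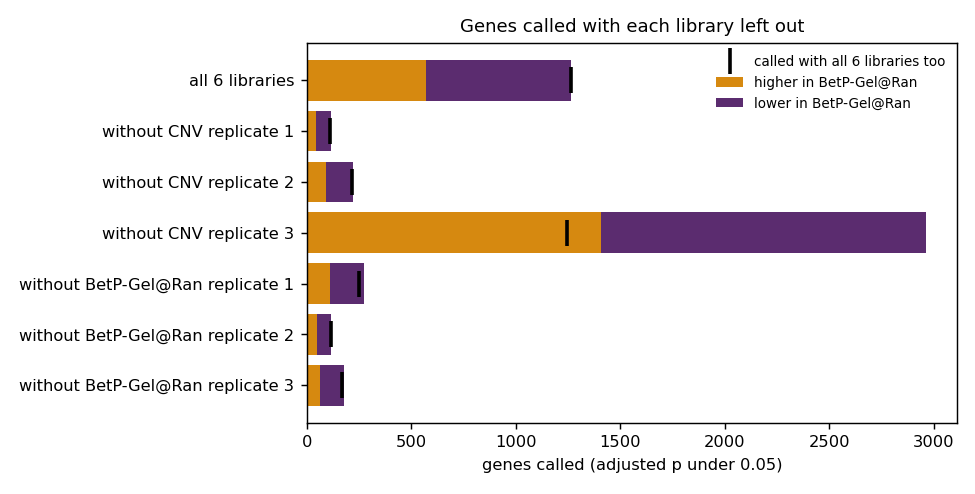
Number of genes called at an adjusted p under 0.05 (limma, Benjamini-Hochberg), on the horizontal axis as gene counts, with all 6 libraries and with each library left out, on the vertical axis. The count was 2966 without CNV replicate 3 and 113 to 272 without any other library, against 1266 with all 6.

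Cytokine and chemokine genes were mostly lower in the gel group. Of 32 tested members of the 38 listed, 22 were lower and 3 higher, the median difference was -1.15, and 7 held. Cxcl2, Cxcl3 and Csf3 reached 1 FPKM in CNV libraries only, so their direction was set by the filter. With 1 library left out 7 to 10 members were called, except 28 without CNV replicate 3. Among them were CXC chemokines of neutrophils encoded close together on chromosome 5. Ppbp, Cxcl5, Cxcl3 and Cxcl2 were called lower in every fit, and 3 of these 4 matched the RefSeq promoter table (GRCm38.p6), whose sequences are shown here. Each line gives the 250 bases before the start in RefSeq, on the plus strand, with matches to 2 motifs in capitals, both strands searched: GGG, any 2 bases and TTTCC, a form of the NF-kappa B site, and TGANTCA, the AP-1 site. The windows are chr5:90768268-90768517 for Ppbp, chr5:90785851-90786100 for Cxcl3 and chr5:90903649-90903898 for Cxcl2, whose start in RefSeq lies inside the gene as the mm10 coordinates below give it.
Ppbp: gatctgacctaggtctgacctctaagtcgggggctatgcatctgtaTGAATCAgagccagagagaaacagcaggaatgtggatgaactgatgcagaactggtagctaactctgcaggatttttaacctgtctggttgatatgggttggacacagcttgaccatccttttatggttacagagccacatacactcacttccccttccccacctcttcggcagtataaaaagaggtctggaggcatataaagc
Cxcl3: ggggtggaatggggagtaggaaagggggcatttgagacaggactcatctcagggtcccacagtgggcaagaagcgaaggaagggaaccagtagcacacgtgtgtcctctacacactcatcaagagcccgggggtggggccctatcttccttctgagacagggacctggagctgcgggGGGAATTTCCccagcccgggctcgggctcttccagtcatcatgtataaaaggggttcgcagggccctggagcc
Cxcl2: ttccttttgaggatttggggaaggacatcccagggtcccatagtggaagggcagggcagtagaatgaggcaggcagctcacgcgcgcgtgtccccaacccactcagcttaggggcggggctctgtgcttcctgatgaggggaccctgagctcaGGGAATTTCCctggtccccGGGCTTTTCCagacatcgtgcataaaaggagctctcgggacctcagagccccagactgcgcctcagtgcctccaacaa
Cxcl3 had 1 NF-kappa B match, 64 to 73 bases before the start, and Cxcl2 had 2, at 88 to 97 and 69 to 78 bases. Ppbp had 1 AP-1 match, 198 to 204 bases before the start. Of 32851 promoter windows, 464 (1.41%) held the NF-kappa B letters and 2217 (6.75%) the AP-1 letters, and the matches shown did not overlap. A match is a description of the letters and not a site shown to be bound.

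Ppbp (chromosome 5, 90768518 to 90770063 in mm10), the platelet basic protein gene whose cleaved products attract neutrophils, read 1490.0, 1809 and 706 FPKM in the CNV libraries and 2.85, 2.46 and 13.2 in the gel libraries. This was the largest fall of the comparison, -7.76 ± 0.59 (SE) on the log2 scale, with an adjusted p of 0.00534 in limma. Every gel library lay far under every CNV library, and the untreated libraries read 2.39, 2.65 and 0.915. Cxcl5 (chromosome 5, 90759360 to 90761624), a ligand of Cxcr2, read 61.6, 122 and 57.2 FPKM in CNV and 1.93, 1.64 and 4.04 in gel libraries, against 1.9 to 2.76 untreated. It fell by 4.50 ± 0.34 (adjusted p 0.00534, limma). Cxcl2 (chromosome 5, 90903871 to 90905938) read 9.32, 11.5 and 7.78 in CNV and 0.138, 0.241 and 0.484 in gel libraries, a fall of -3.03 ± 0.16 (adjusted p 0.00146, limma). The gel values of Cxcl2 also lay under the untreated range of 1.77 to 2.99. Cxcl3 (chromosome 5, 90786103 to 90789600) read 9.03, 12.2 and 7.97 in CNV and 0.0326, 0 and 0.0673 in gel libraries, with a difference of -3.36 ± 0.14 and the smallest adjusted p of all genes, 0.000786. These 4 genes held in all 7 fits. Cxcl1 was lower too, by 1.37 ± 0.25 (adjusted p 0.0264, limma), but lost the call without 5 of the 6 libraries.

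Csf3, which encodes the growth factor of neutrophil precursors, read 9.32, 21.2 and 12.1 FPKM in CNV and 0.525, 0.0784 and 0.583 in gel libraries, with untreated values of 0.219 to 0.438. The difference was -3.39 ± 0.29 (adjusted p 0.00568, limma). Il1b, the interleukin-1 beta gene on chromosome 2 (129364570 to 129371139), read 30.3, 34 and 17 in CNV and 0.868, 0.436 and 2.75 in gel libraries, a fall of -3.64 ± 0.39 (adjusted p 0.00837). Il33, an alarmin of the interleukin-1 family stored in nuclei, read 50.6, 63 and 44.2 in CNV and 15.4, 16.6 and 18.4 in gel libraries, with untreated values of 11.5 to 12.2. Csf3, Il1b and Il33 held in all 7 fits, and none of their gel values reached a CNV value. Il24, named after its values were seen, was at 0 reads in all gel and untreated libraries against a mean of 2.40 FPKM in CNV. With a floor of 3 reads per library it was at least 19.4-fold lower in the gel group.

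The 3 members that were higher were Cx3cl1 (0.53 ± 0.07), a membrane-bound chemokine of neurons and endothelium, Ccl5 (0.38 ± 0.09) and Cxcl13 (0.45 ± 0.11). They were called with few libraries removed: Cx3cl1 in 2 and Ccl5 and Cxcl13 in 1 of the 6 reduced fits. The gel values of Cxcl13, 3.28 to 3.87 FPKM, lay above both the CNV (1.93 to 2.68) and the untreated values (0.431 to 1.38). Ccl2, the monocyte chemoattractant, read 18.8, 17.7 and 6.83 in CNV and 2.26, 3.7 and 5.07 in gel libraries, and was lower by 1.66 ± 0.39 (adjusted p 0.0446). It was called in 1 reduced fit, that without CNV replicate 3, whose value was the lowest of the CNV libraries. Tnf was not called (0.49 ± 0.18, adjusted p 0.121). Il6 did not reach the level for testing, with 0.873, 0.587 and 0.177 FPKM in CNV and 0.047, 0.0456 and 0 in gel libraries.

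**Figure D2:**
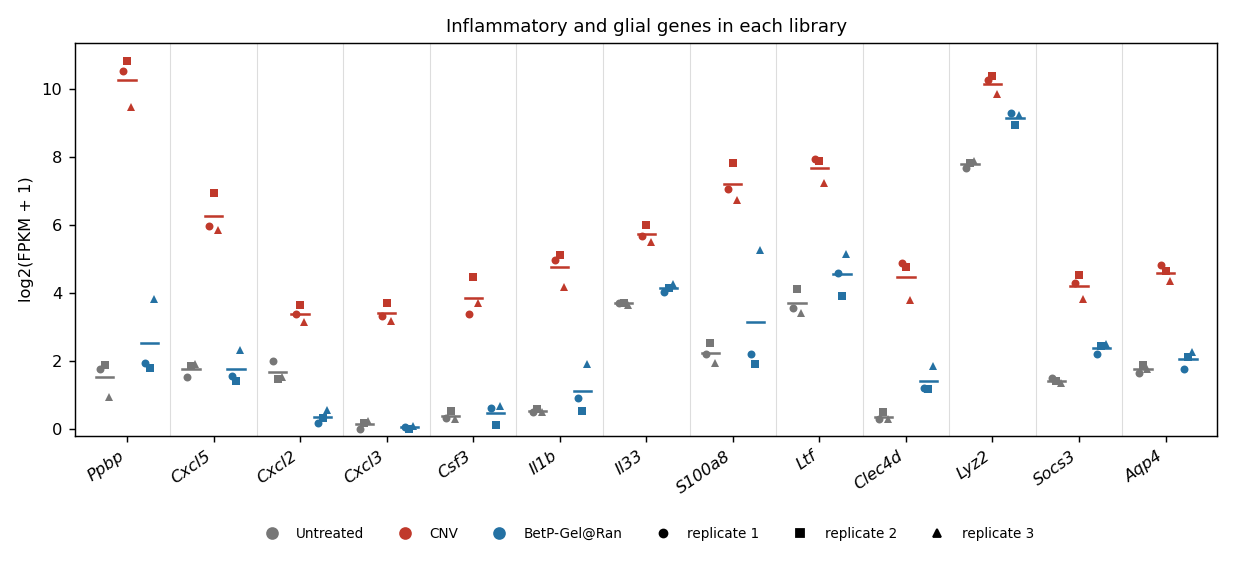
Levels of inflammatory and glial genes in each library, on the vertical axis as log2(FPKM + 1); points are libraries, shaped by replicate number, and short lines are group means. Gel libraries lay under every CNV library for all 13 genes shown, and S100a8 in gel replicate 3 (37.6 FPKM) stood above its 2 other gel libraries.

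Neutrophil markers were lower as a group. Of 14 tested of 20 listed, 11 were lower and none higher, the median difference was -1.63 and 4 held, with 4 to 7 called when 1 library was left out and 11 without CNV replicate 3. The list took 0.136, 0.156 and 0.087% of reads in CNV and 0.013, 0.012 and 0.026% in gel libraries, against 0.0083 to 0.0129% untreated. Much of this share came from Ltf, with 40455 reads over the CNV libraries and 4288 over the gel libraries. S100a9 had 9821 and 890. Since Ltf is also a gene of tears, the share is not a measure of neutrophils alone. Clec4d, a lectin receptor of myeloid cells, read 28.2, 26.1 and 12.8 FPKM in CNV and 1.32, 1.25 and 2.58 in gel libraries (-3.07 ± 0.31, adjusted p 0.00764, limma). Ltf, which encodes lactoferrin of neutrophil granules and of tears, read 246, 233 and 149 in CNV and 23, 14 and 34.6 in gel libraries (-3.13 ± 0.33). Trem1 and Camp, an activating receptor and the cathelicidin gene, were lower by 1.76 ± 0.20 and 0.90 ± 0.10. All 4 held. S100a8 and S100a9, the calprotectin subunits, fell by 4.07 ± 0.89 and 4.05 ± 0.90 but were called in 1 reduced fit each: S100a8 read 3.62 and 2.79 in gel replicates 1 and 2 and 37.6 in gel replicate 3. The other 6 listed members did not reach the level for testing: over the 6 libraries Mpo read 0, Elane at most 0.0545, Ngp at most 0.289, Ly6g at most 0.968, Fpr1 at most 3.14 and Mmp8 at most 4.61 FPKM.

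Markers of microglia and macrophages were mostly lower, with smaller differences. All 28 were tested, 13 were called lower and none higher, and the median difference was -0.72. Of the 28, 24 lay below 0 and 4 above. The 4 genes given below are those with the smallest p and do not stand for each member. None held in all 7 fits, and the count was 0 to 2 with 1 library left out and 18 without CNV replicate 3. The list took 0.515, 0.608 and 0.444% of reads in CNV, 0.329, 0.296 and 0.320% in gel and 0.192 to 0.207% in untreated libraries. Cd53, a tetraspanin of leukocytes, read 52.4, 62.6 and 35.1 FPKM in CNV and 16, 15.5 and 20.2 in gel libraries (-1.46 ± 0.21, adjusted p 0.0166, limma). Lyz2, the lysozyme of myeloid cells, read 1224, 1332 and 915 in CNV and 623, 486 and 601 in gel libraries (-1.01 ± 0.17). Cd14 (-1.41 ± 0.22), a coreceptor for bacterial lipopolysaccharide, and Tyrobp (-1.19 ± 0.20), an adaptor of activating receptors, were also lower. Of 17 lymphocyte markers only 5 could be tested and limma called 0, with 2 at an unadjusted p under 0.05 and 1 called by voom. Their median was -0.18, and lay between -0.084 (without gel replicate 1) and -0.38 (without CNV replicate 3) when a library was left out. Trbc2, a T cell receptor constant gene, read 4.38, 3.13 and 2.01 in CNV and 1.15, 1.44 and 1.62 in gel libraries (-0.76 ± 0.20, adjusted p 0.0604).

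Calls among complement genes and the sensors of innate immunity were all lower; over all tested genes 5.13% were. Of 19 tested complement genes of 23 listed, 5 were lower and none higher, with a median of -0.21, and none held. The median was -0.32 without CNV replicate 2 and -0.45 without gel replicate 1. Itgb2, the beta subunit of the complement receptors, was lower by 1.20 ± 0.16, Cfp (properdin) by 0.93 ± 0.18 and C5ar1 by 1.06 ± 0.21, while C3 was not called (-0.44 ± 0.19, adjusted p 0.17). The count was 0 to 1 with a library left out and 7 without CNV replicate 3. Among 21 tested genes of NF-kappa B, Toll-like receptor and inflammasome function of 24 listed, 5 were lower, none was higher, the median was -0.30 and 1 held. That gene was Ptgs2, the inducible cyclooxygenase, at 6.89, 6.3 and 3.3 FPKM in CNV and 0.249, 0.774 and 0.527 in gel libraries (-2.06 ± 0.24, adjusted p 0.0102, limma). Myd88, the Toll-like receptor adaptor, was lower by 0.38 ± 0.08. The NF-kappa B list gave 1 call with any other library left out and 7 without CNV replicate 3.

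Interferon-stimulated genes and antigen presentation genes gave 1 call each, both lower, which was near the share of 5.13% called lower over all tested genes. Of 23 tested interferon-stimulated genes of 24 listed, Bst2 was lower (-0.64 ± 0.14), and the median was -0.15, or -0.095 without gel replicate 2. Of 17 tested antigen presentation genes of 19 listed, Ctss, the cathepsin that trims the invariant chain, was lower (-1.004 ± 0.201), and the median was 0.02, with -0.037 to 0.074 when CNV replicate 1 or 3 was left out. Cd74, the invariant chain, read 109, 79.2 and 123 FPKM in CNV and 146, 141 and 155 in gel libraries, which did not overlap, but was not called (adjusted p 0.0794, limma). No member of either list held, and without CNV replicate 3 they gave 4 and 3 calls.

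Muller glia and gliosis genes moved in both directions. Of 24 tested of 25 listed, 5 were lower and 3 higher, the median was -0.20 (-0.13 without CNV replicate 2) and 3 held. Aqp4, the water channel of Muller glia and astrocytes, read 27.2, 23.8 and 19.3 FPKM in CNV and 2.4, 3.32 and 3.76 in gel libraries, with untreated values of 2.1 to 2.67. It fell by 2.55 ± 0.16 (adjusted p 0.00268, limma), and no gel value came near a CNV value. Socs3, the feedback inhibitor of gp130 cytokine signalling, read 18.4, 21.9 and 13.1 in CNV and 3.59, 4.43 and 4.64 in gel libraries (-1.83 ± 0.18). Edn2, an endothelin induced in stressed photoreceptors, read 9.39, 12 and 10.9 in CNV and 3.47, 5.12 and 4.51 in gel libraries (-1.14 ± 0.14), and its gel values stayed above the untreated values of 0.0847 to 0.963. Serpina3n, a reactive astrocyte gene, fell by 2.32 ± 0.33 (adjusted p 0.0166) and was called in 2 reduced fits. Gfap, the intermediate filament of reactive glia, was not called: it read 21.3, 43.8 and 39.5 in CNV and 33.9, 41.3 and 37 in gel libraries, above the untreated 13.2 to 15.9. Kcnj10, the potassium channel of Muller glia, was higher at 5.75, 6.79 and 7.64 in gel libraries against 2.22, 3.05 and 3.86 in CNV (0.95 ± 0.16), and Glul, glutamine synthetase, was higher by 0.48 ± 0.09. The list gave 3 to 5 calls with a library left out and 11 without CNV replicate 3.

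Vessel genes gave few calls, in both directions. Of the tested endothelial and angiogenesis genes 13 lay above 0 and 8 below, and of the tested pericyte and smooth muscle genes 6 and 3. Of 21 tested endothelial and angiogenesis genes of 28 listed, 3 were lower and 1 higher, where 5.13% of all tested genes were lower and 4.18% higher. The median was 0.11, or 0.033 without gel replicate 1, and 1 held, with 1 to 2 calls after leaving out a library and 6 without CNV replicate 3. Vegfa, the mouse gene for vascular endothelial growth factor A, was lower in the gel group. It read 11.4, 11.1 and 7.38 FPKM in CNV and 5.47, 6.33 and 5.72 in gel libraries, against 5.27 to 6.91 untreated. The fall of -0.66 ± 0.16 (adjusted p 0.0461, limma) was called in 1 of the 6 reduced fits, that without CNV replicate 3. Esm1, a gene of endothelial tip cells, read 2.82, 4.92 and 4.47 in CNV and 0.708, 0.766 and 0.983 in gel libraries (-1.46 ± 0.17), and held. Apln, the apelin gene, was lower by 1.02 ± 0.17. Flt1, the receptor that binds vascular endothelial growth factor as a decoy, was higher at 1.54, 1.75 and 1.58 in gel libraries against 0.875, 0.629 and 0.814 in CNV (0.57 ± 0.10), above the untreated 0.784 to 0.955. Kdr, the signalling receptor (0.22 ± 0.13, adjusted p 0.281), and Angpt2 (0.39 ± 0.17, adjusted p 0.173) were not called, and Pgf was below the level for testing. Of 14 pericyte and smooth muscle genes 9 were tested and limma called 0, with 4 at an unadjusted p under 0.05, 2 called by voom and a median of 0.05, which lay between -0.0026 (without gel replicate 1) and 0.22 (without gel replicate 3) when a library was left out.

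Among matrix genes and their proteases, all calls were lower, where 5.13% of all tested genes were called lower. All 32 collagen and matrix genes were tested, 4 were lower, none was higher, the median was 0.06 and none held. Of the 32, 18 lay above 0 and 14 below. In 8 the gel libraries lay wholly above the CNV libraries and in 6 wholly below. Over all tested genes these shares were 18.0% and 19.1%. Left-out libraries moved the matrix median between -0.053 (CNV replicate 3) and 0.10 (CNV replicate 1). Spp1, osteopontin, read 496, 685 and 346 FPKM in CNV and 21.1, 37.9 and 76.4 in gel libraries (-3.60 ± 0.45, adjusted p 0.0123, limma), and was called in 3 reduced fits. Thbs1, thrombospondin 1, an inhibitor of angiogenesis, fell by 2.04 ± 0.30, and Tnc, tenascin C, by 1.34 ± 0.28. Of 17 tested metalloproteinase and TIMP genes of 24 listed, 6 were lower, none was higher, the median was -0.43 (-0.27 without CNV replicate 2) and 2 held. Mmp12, the macrophage elastase, read 3.38, 4.13 and 3.58 in CNV and 0.339, 0.413 and 0.879 in gel libraries (-1.62 ± 0.15). Adam8, a protease of myeloid cells, read 10.7, 10.7 and 4.91 in CNV and 0.603, 0.764 and 1.07 in gel libraries (-2.37 ± 0.27). Timp1, a metalloproteinase inhibitor, was lower by 2.08 ± 0.32. Matrix calls numbered 0 to 3 and protease calls 2 to 5 with a library left out, and 10 and 9 without CNV replicate 3.

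Calls among cell division and apoptosis genes were lower, while the stress lists were called in both directions. Over all tested genes 5.13% were lower and 4.18% higher. Of the 26 cell cycle genes, all tested, 4 were lower (Pcna, Bub1, Cdk1 and Bub1b), none was higher and the median was -0.54. The log2 difference was below 0 in 25 of the 26. In 10 the gel libraries lay wholly below the CNV libraries and in 0 wholly above, against 19.1% and 18.0% over all tested genes. Without CNV replicate 3 the count of calls was 23, and with any other library left out it was 0. Cdk1, the mitotic kinase, read 8.78, 8.57 and 4.74 FPKM in CNV and 3.92, 3.12 and 2.99 in gel libraries (-0.91 ± 0.21, adjusted p 0.0446, limma). Of 27 tested apoptosis genes of 28 listed, 5 were lower, none was higher, the median was -0.22 and 1 held: Pmaip1, a BH3-only inducer of apoptosis, at 5.93, 5.25 and 3.67 in CNV and 1.23, 1.42 and 1.09 in gel libraries. Without CNV replicate 3 the apoptosis count was 10, and without any other 1 to 2. Of 20 tested immediate early genes of 23 listed, 3 were lower (Myc, Fosl1 and Jun) and 1 was higher (Nr4a2), with a median of -0.24. Of 25 oxidative stress genes 5 were lower and 1 higher, with a median of -0.17, or -0.11 without CNV replicate 2. Gsr, glutathione reductase, read 32, 32.5 and 22.2 in CNV and 15, 13 and 13.4 in gel libraries. Of 16 heat shock genes, with a median of 0.0031 that lay between -0.036 and 0.00017 when gel replicate 2 or 3 was left out, 1 was higher: Hspb1, a small heat shock protein also listed with the lens genes, at 222, 297 and 366 in CNV and 618, 609 and 533 in gel libraries. No member of the last 3 lists held, and their counts were at most 1 with a library other than CNV replicate 3 left out, and 8, 14 and 6 without it.

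Genes of retinal ganglion cells and of synapses were higher in the gel group. Of 15 tested ganglion cell markers of 18 listed, 10 were higher and none lower, the median was 0.70 and 3 held, with 3 to 7 called after leaving out a library and 11 without CNV replicate 3. Nefh, the heavy neurofilament chain, read 3.03, 2.34 and 2.43 FPKM in CNV and 8.34, 8.75 and 8.56 in gel libraries, against 16.8, 22 and 11.3 untreated. It rose by 1.41 ± 0.09 (adjusted p 0.00268, limma). Nefl, the light chain, read 12.7, 10.6 and 12.8 in CNV and 26.9, 33.6 and 31.5 in gel libraries (1.28 ± 0.11), and Nefm, the medium chain, rose by 0.95 ± 0.10. The 3 chains held in all 7 fits, and in each the gel values lay between the CNV and the untreated values. Slc17a6, the vesicular glutamate transporter of ganglion cells, rose by 0.90 ± 0.11 and was called in 5 of 6 reduced fits. Of 14 tested synaptic genes of 22 listed, 7 were higher, none was lower, the median was 0.35 and 1 held, with 1 to 3 called after leaving out a library and 7 without CNV replicate 3. Snap25, a protein of the vesicle fusion machinery, read 13.5, 13.5 and 18.2 in CNV and 30.7, 35.3 and 31.4 in gel libraries (1.07 ± 0.13), against 58.3 to 85.6 untreated. Vamp2 (0.56 ± 0.08) and Syn1 (0.78 ± 0.13), further proteins of synaptic vesicles, were also higher.

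Markers of inner retinal neurons gave 7 calls, all higher. Of 9 tested amacrine genes of 12 listed, 5 were higher, none was lower, the median was 0.47 and 1 held. Calb2, calretinin, read 22, 20.6 and 34.8 FPKM in CNV and 65.5, 73.1 and 69 in gel libraries, against 145 to 256 untreated. It rose by 1.43 ± 0.19 (adjusted p 0.0134, limma) and was called in 3 reduced fits, and Gad1, which makes GABA, rose by 0.81 ± 0.12. The amacrine count was 1 to 3 with a library left out and 5 without CNV replicate 3. Only 2 of 7 horizontal cell markers were tested. Calb1, calbindin, was higher (0.73 ± 0.15) and Tpm3 was not called (0.086 ± 0.107). Lhx1, Onecut1, Onecut2 and Prox1 read at most 0.098, 0.014, 0.022 and 0.64 FPKM over the 6 libraries. The call of Calb1 therefore does not stand for horizontal cells. Of 9 tested bipolar cell markers of 14 listed, 1 was higher, Isl1, a transcription factor also found in ganglion cells, and the median was -0.01. It was 0.080 without CNV replicate 1 and -0.19 without gel replicate 2.

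For rod markers the count of calls was near that over all genes, though most members lay above 0. All 26 were tested and 1 was called higher, where 4.18% of all tested genes were. The log2 difference was above 0 in 25 of the 26. In 9 of 26 the gel libraries lay wholly above the CNV libraries, and in 0 wholly below. Over all tested genes these shares were 18.0% and 19.1%. The median was 0.31, or 0.17 without CNV replicate 2. The list took 1.33, 1.03 and 1.26% of reads in CNV and 1.51, 1.79 and 1.33% in gel libraries. Gnat1, rod transducin, read 362, 336 and 394 FPKM in CNV and 538, 634 and 467 in gel libraries (0.58 ± 0.13, adjusted p 0.043, limma), against 792 to 1399.5 untreated. Pde6g, a subunit of the rod phosphodiesterase, read 174, 136 and 173 in CNV and 212, 262 and 216 in gel libraries, a difference of 0.51 ± 0.13 that was not called (adjusted p 0.0576). Of 12 tested cone markers of 14 listed, 1 was lower and the median was 0.27, or 0.16 without CNV replicate 2 or gel replicate 2. That gene was Gnb3, a G protein subunit of cones and bipolar cells, which read 49.8, 55.5 and 54 in CNV and 26.8, 36.6 and 30.9 in gel libraries (-0.75 ± 0.12). No rod, cone, bipolar or horizontal marker held.

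**Figure D3:**
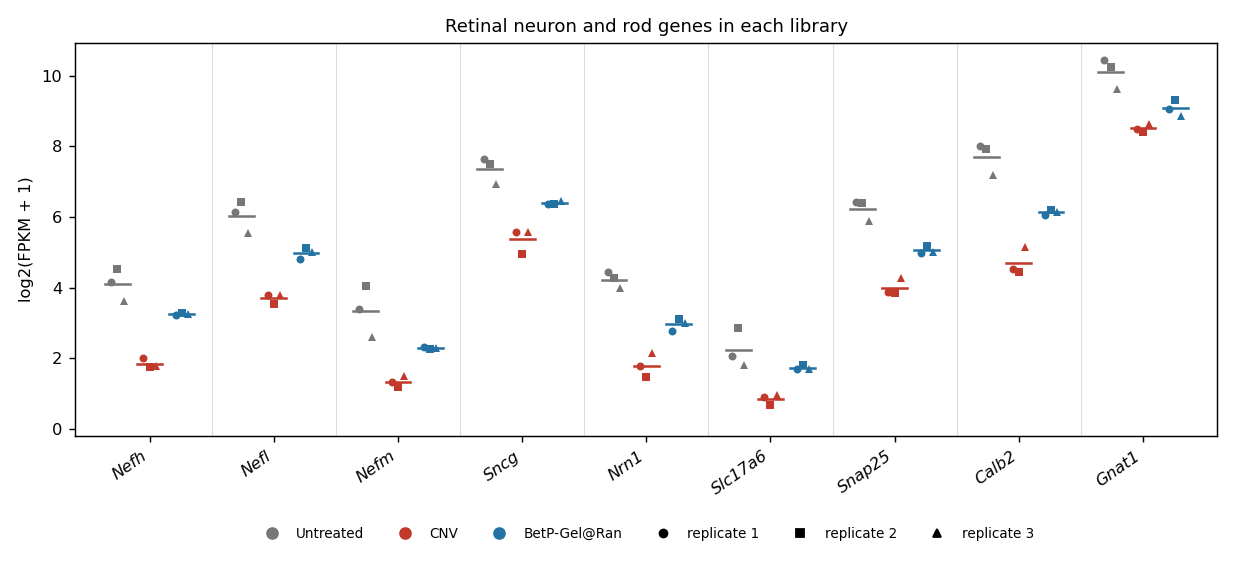
Levels of retinal neuron and rod genes in each library, on the vertical axis as log2(FPKM + 1); points are libraries, shaped by replicate number, and short lines are group means. For all 9 genes shown the gel mean lay between the CNV and the untreated mean, and Nefh read 8.34 to 8.75 FPKM in gel against 2.34 to 3.03 in CNV libraries.

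Pigment epithelium and melanin genes changed in both directions. Of 18 pigment epithelium markers, all tested, 5 were lower and 1 higher, the median was -0.37 and 1 held, with 1 to 2 calls after leaving out a library and 8 without CNV replicate 3. Krt18, a keratin of simple epithelia, read 70.7, 57.8 and 63.7 FPKM in CNV and 29.5, 30.5 and 28.5 in gel libraries (-1.09 ± 0.09, adjusted p 0.00568, limma), under the untreated 35.3 to 45.6. Rdh10, a retinol dehydrogenase, was lower by 0.68 ± 0.11. Rpe65, the isomerase of the visual cycle, read 58.3, 96.4 and 92.2 in CNV and 68.2, 66.8 and 73 in gel libraries and was not called (adjusted p 0.475). Of 12 tested melanin and melanocyte genes of 13 listed, 2 were lower, 1 was higher and the median was -0.10, with 0.030 without CNV replicate 2 and -0.27 without gel replicate 2. Tyr, tyrosinase, was lower by 0.63 ± 0.13 and Mitf, its transcriptional regulator, by 0.46 ± 0.11, while Kit, the stem cell factor receptor, was higher by 0.63 ± 0.11. The melanin list gave 3 calls without CNV replicate 3 and 0 without any other library.

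Lens genes had the largest rises. Of 20 tested of 28 listed, 19 were higher and none lower, and the median difference was 3.93. Of these 3 held, and 6 to 11 were called with 1 library left out, or 17 without CNV replicate 3. The voom fit on recovered reads called 3, which were not the same 3. Of the genes that held, it called Bfsp1 (adjusted p 0.0236, voom) but not Crygd (0.110) or Crybb1 (0.0523). Lens genes took 0.056, 0.048 and 0.079% of reads in CNV and 0.325, 1.08 and 0.431% in gel libraries, while the untreated libraries spread from 0.227 to 2.96%. For each of the 10 largest rises, gel replicate 2 was the highest gel library and CNV replicate 2 the lowest CNV library. Crygd, a gamma crystallin, read 2.5, 0 and 0.626 FPKM in CNV and 29.6, 92.4 and 62.9 in gel libraries (4.99 ± 0.54, adjusted p 0.0097, limma), against 142, 85.4 and 1167 untreated. Crybb1, a beta crystallin, read 2.87, 0.81 and 3.38 in CNV and 51.1, 157 and 61.8 in gel libraries (4.68 ± 0.49), and Bfsp1, a filament protein of lens fibres, rose by 2.80 ± 0.32. Cryaa, alpha A crystallin, had the largest rise of all genes, 5.77 ± 0.98 (adjusted p 0.0262), but was called in 1 reduced fit. It read 10.9, 0.825 and 16.7 in CNV, 181, 992 and 341 in gel and 78.8, 34.2 and 1190.4 in untreated libraries, which all lay above the CNV libraries and spread both under and above the gel libraries. Crybb2, Crygb, Crygs, Cryba1, Cryba2, Crygc and Cryba4, the other crystallins among the 10 largest rises, rose by 4.11 to 5.67. The part of differing amounts of lens tissue in these rises was not tested.

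Cornea and surface epithelium genes split by gene. Of 23 tested, 8 were higher and 2 lower, the median was 0.45 and none held, with 0 calls after leaving out any library but CNV replicate 3 and 16 without it. Krt12, the keratin of corneal epithelium, read 1391, 1383 and 2246 FPKM in CNV and 3514, 3472 and 3562 in gel libraries (1.11 ± 0.19, adjusted p 0.0245, limma). Aldh3a1, a corneal crystallin, read 1245, 1513 and 2704 in CNV and 4846, 4032 and 4272 in gel libraries (1.34 ± 0.27), and Tkt, transketolase, rose by 1.13 ± 0.22. Krt14, a keratin of basal cells, read 1869, 2252 and 553 in CNV and 318, 173 and 337 in gel libraries (-2.32 ± 0.54, adjusted p 0.0441), and CNV replicate 3 lay nearest the gel group. Of 21 tested cornified envelope genes of 29 listed, 2 were lower and none higher. The median was -0.13, but was -0.80 without gel replicate 3, -0.37 without CNV replicate 3, 0.011 without CNV replicate 2 and 0.095 without gel replicate 2. Sprr2f, a small proline-rich protein, read 77.7, 80.3 and 21.6 in CNV and 0.469, 0.182 and 7.44 in gel libraries (-4.42 ± 0.86), and Sprr2a3 was lower by 2.52 ± 0.54. Of 8 tested mucin and goblet cell genes of 15 listed, 3 were lower, none was higher and the median was -0.38, or -0.13 without gel replicate 2. Wfdc2, a secretory protease inhibitor, read 388, 505 and 396 in CNV and 167, 69.8 and 102 in gel libraries (-1.996 ± 0.296), and Muc1, a membrane mucin, fell by 0.75 ± 0.11. With a library left out the cornified envelope list gave 0 to 4 calls and the mucin list 1 to 2, and without CNV replicate 3 each gave 5.

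**Figure D4:**
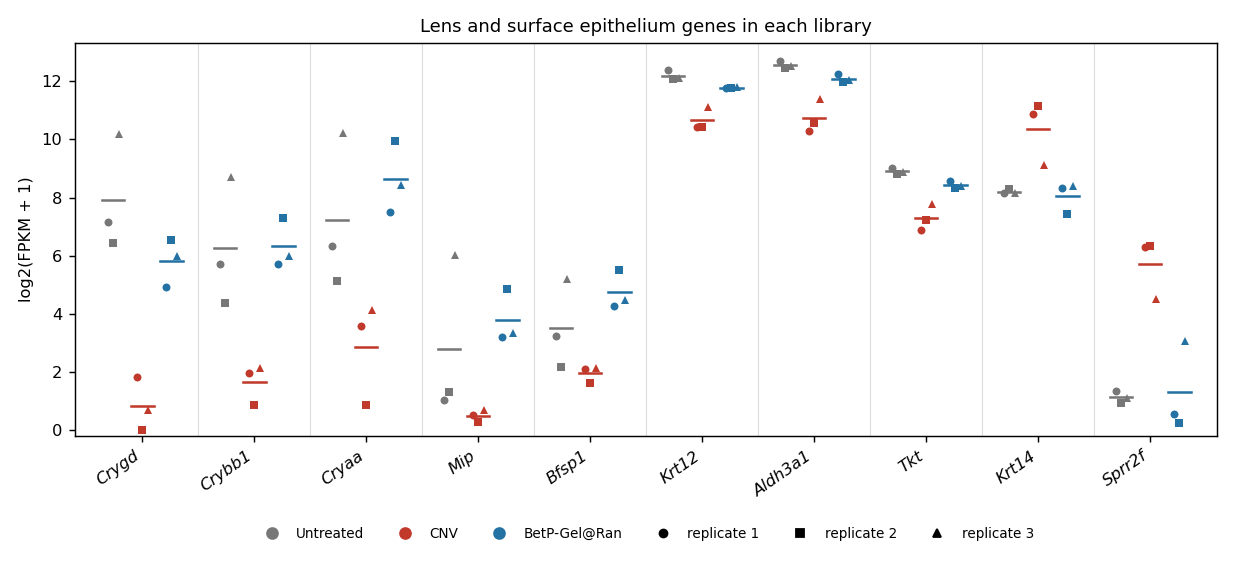
Levels of lens and surface epithelium genes in each library, on the vertical axis as log2(FPKM + 1); points are libraries, shaped by replicate number, and short lines are group means. Crystallins lay higher in all gel than in all CNV libraries and for the 3 crystallins shown the untreated libraries spread widest, and Krt14 in CNV replicate 3 (553 FPKM) stood under the other CNV libraries (1869 and 2252).

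Steroid response, clock and metabolic genes gave mixed counts of calls. Most clock genes lay above 0, and most glycolysis and oxidative phosphorylation genes below 0. Of 23 tested glucocorticoid-induced genes of 26 listed, 4 were lower and 3 higher, the median was -0.02 and none held. The median was -0.12 without CNV replicate 1 and 0.14 without CNV replicate 2. Tsc22d3, a glucocorticoid target, read 16, 12.6 and 20.4 FPKM in CNV and 26.3, 36.5 and 30.4 in gel libraries (0.90 ± 0.18, adjusted p 0.0336, limma), against 58.9 to 71 untreated, while Fkbp5 was not called (0.77 ± 0.20, adjusted p 0.0572). Cebpb and Cebpd, transcription factors of inflammation, were lower by 1.10 ± 0.18 and 0.94 ± 0.19. Of 20 clock genes 5 were higher and 1 lower, with a median of 0.31. Hlf (0.86 ± 0.14), Nr1d1 (0.77 ± 0.16), Cry2 (0.53 ± 0.11), Per1 (0.52 ± 0.12) and Ciart were higher, and Nfil3 was lower. The log2 difference was above 0 in 19 of the 20. In 12 the gel libraries lay wholly above the CNV libraries and in 1 wholly below. Over all tested genes these shares were 18.0% and 19.1%. No time of day of sampling is known here. Of 27 tested entries of 26 glycolysis and hypoxia genes, 4 were higher and 1 lower, and the median was -0.30, or -0.17 without CNV replicate 2. Of these entries 20 lay below 0 and 7 above, and in 11 the gel libraries lay wholly below CNV and in 5 wholly above. Aldoc (0.64 ± 0.10), Ndrg1, Egln3 and Eno2 were higher and Ldha, lactate dehydrogenase A, was lower (-0.68 ± 0.16). Of 36 oxidative phosphorylation genes 1, Uqcrq, was called lower, where 5.13% of all tested genes were, and the median was -0.15. Though few were called, 29 of the 36 lay below 0. In 14 the gel libraries lay wholly below the CNV libraries and in 0 wholly above, against 19.1% and 18.0% over all tested genes. Without CNV replicate 3 the glucocorticoid, clock, glycolysis and oxidative phosphorylation counts were 12, 13, 15 and 2, and without any other library at most 1.

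Lists of tissue beside the retina gave 3 calls, where 4.18% of all tested genes were called higher and 5.13% lower. Of 20 tested skeletal muscle genes of 25 listed, limma called 0, with 6 at an unadjusted p under 0.05. Voom called 0, and limma called 10 without CNV replicate 3. The median was 0.35, or 0.21 without CNV replicate 2, and 19 of the 20 lay above 0. In 5 the gel libraries lay wholly above the CNV libraries and in 0 wholly below, against 18.0% and 19.1% over all tested genes. Of 8 tested red blood cell genes of 11 listed, limma called 0, with 1 at an unadjusted p under 0.05, 0 by voom and a median of -0.63. That median was -0.96 and -0.12 without CNV replicates 1 and 2, and -0.24 and -1.03 without gel replicates 1 and 3. The list took 0.547, 1.59 and 0.622% of reads in CNV and 0.283, 0.514 and 0.946% in gel libraries. Of 6 tested Schwann cell and myelin genes of 13 listed, Ncmap was lower (-0.62 ± 0.14) and the median was -0.11, with 0.042 without gel replicate 3 and -0.26 without gel replicate 2. Of 14 fibroblast and keratocyte genes, Aldh1a1 was higher (0.72 ± 0.16), Ly6a was lower (-0.52 ± 0.12) and the median was 0.17, with 0.081 without CNV replicate 2 and 0.25 without CNV replicate 1. These last lists gave 3 and 4 calls without CNV replicate 3 and 0 without any other library.

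**Figure D5:**
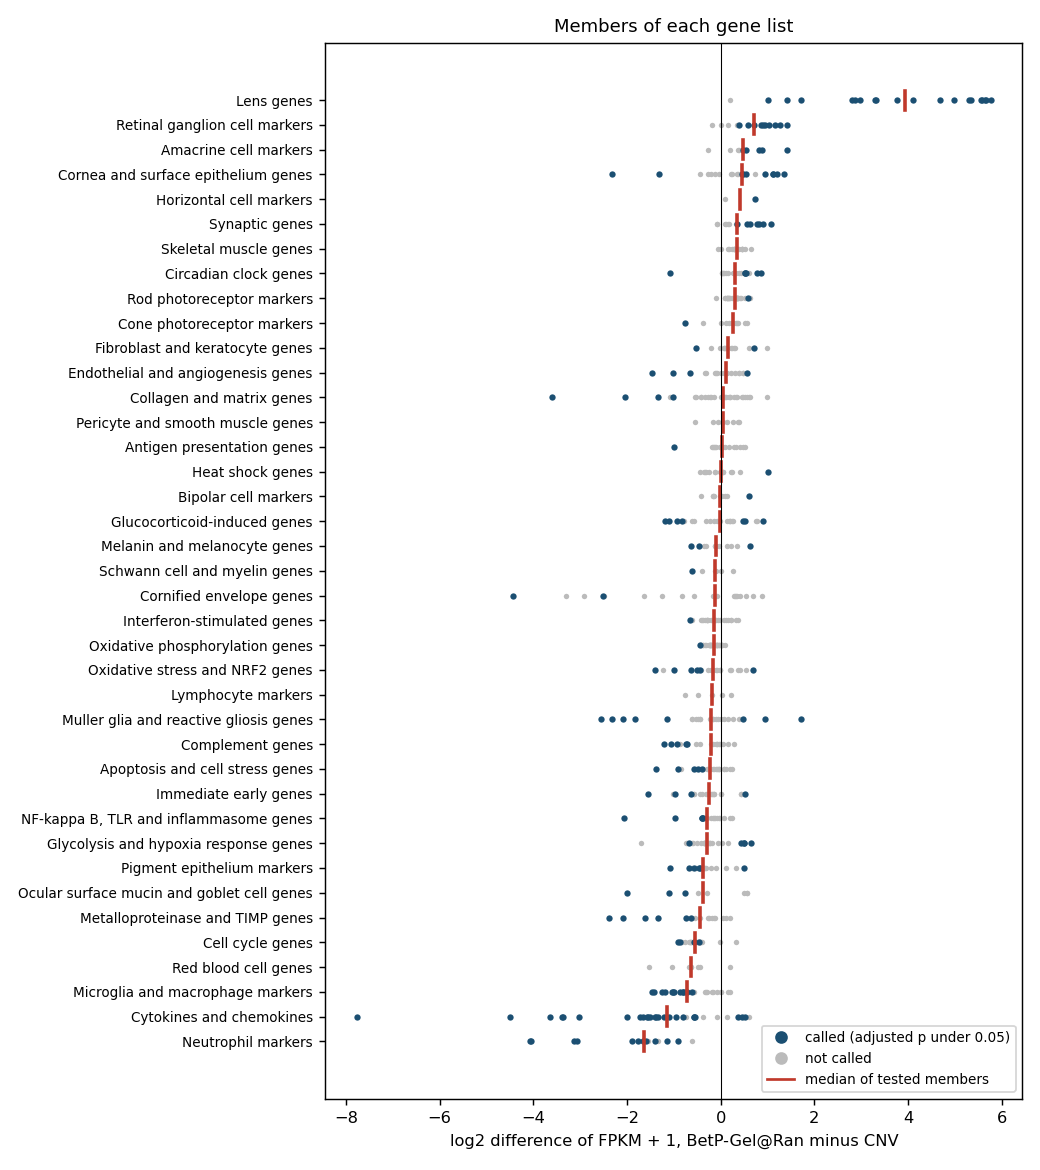
Log2 difference (gel minus CNV) of each tested member of the 39 gene lists, on the horizontal axis; dark points are members called at an adjusted p under 0.05 (limma), grey points those not called, and red bars the medians. Lens genes lay highest, at a median of 3.93, and neutrophil markers lowest, at -1.63.

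The 85 genes that held included 57 in no list. Those named here are examples chosen after their values were seen. Anxa10, an annexin, read 6.63, 5.2 and 4.23 FPKM in CNV and 0.0747, 0 and 0.0257 in gel libraries (-2.60 ± 0.14, adjusted p 0.00148, limma). Dynap, a membrane protein gene, was lower by 4.05 ± 0.36, with 22.3, 25.1 and 8.7 in CNV and 0, 0 and 0.288 in gel libraries. Voom on recovered reads did not call Dynap (adjusted p 0.0841, voom). Tnfrsf12a, the receptor for TWEAK, read 57.5, 50.7 and 34.4 in CNV and 14.6, 10.6 and 13 in gel libraries (-1.80 ± 0.20). Srgn, the core protein of secretory granules of blood cells, and Ifitm3, an antiviral membrane protein, were lower by 2.01 ± 0.23 and 1.22 ± 0.14. Genes of axons and synapses were among those that rose: Cplx1 (1.29 ± 0.11) and Cplx2 (0.78 ± 0.09), regulators of vesicle fusion, Ina (1.28 ± 0.09), an intermediate filament of neurons, Kif5a (1.06 ± 0.08), an axonal motor, and Rph3a (1.04 ± 0.10). Ina read 1.5, 1.18 and 1.51 in CNV, 4.61, 4.84 and 4.94 in gel and 10.2, 13.1 and 5.97 in untreated libraries. Stfa2l1, among the 10 largest falls, did not hold (-3.42 ± 0.51, adjusted p 0.0179). Of the 19 genes of general interest, which overlap the lists, 17 were tested, 7 were lower and 2 higher, and 3 held (Ppbp, Cxcl5 and Il1b).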

How the data were processed

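Messenger RNA of 9 libraries of mouse choroidal and retinal flat mounts was sequenced after selection with poly-T beads. The authors deposited 1 table of FPKM values per gene. Reads were counted with HTSeq 0.6.0 on mm10, per the submitters' processing notes. No source used here names the aligner. Every FPKM value times gene length gave a whole number of reads within a tolerance of 0.05 (100% of values), from which depth and voom input were taken.

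Here log2(FPKM + 1) of the 6 libraries was fitted with limma 3.58.1 (R 4.3.3, statmod 1.5.0; trend and robust), two-sided, for genes that reached 1 FPKM in 3 or more of the 6, and p-values were adjusted by Benjamini-Hochberg over 13602 genes. An exact permutation test of 3 against 3 cannot go under 0.1. On simulated data with 13602 genes, the fit recovered 79% of 100 genes changed by 1 and 36% of 100 changed by 0.5 on the log2 scale, and 3.36% of its calls were unchanged genes. The simulated noise was independent between genes, with no shift shared across a library and few genes changed. These rates therefore may not apply to the data, where calls depended on single libraries.

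Genes were named by rule: the 10 largest rises and 10 largest falls among calls with no overlap between groups, up to 4 members with the smallest p of each list, and 19 genes of general interest. Other genes named were chosen after their values were seen. Members and all 39 lists were chosen with earlier results of these data known. Some named genes are not reported here. Alternatives were other pseudocounts, filters, scalings, a fit of all 9 libraries, array weights, a replicate block, lens genes as a covariate, voom and each library left out.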

Additional observations from a re-analysis of the deposited data

How the results depend on the processing

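Against 1266 calls (568 higher, 698 lower, 259 of at least 1 on the log2 scale), testing 28245 genes with no filter gave 184, 82, 102 and 91. A pseudocount of 0.1 gave 414 of at least 1 and a filter of 5 FPKM gave 155. The fit of all 9 libraries called 2032 genes, 1206 of them lower, and array weights called 2816 (1311 higher, 1505 lower), with the smallest weight, 0.526, on CNV replicate 3. Voom on recovered reads called 1913, 918 higher and 423 of at least 1, and shared 1153 of the 1266 calls. Leaving out each library in turn gave 113 to 2966 calls, 44 to 1406 higher, 69 to 1560 lower and 77 to 413 of at least 1. An unadjusted p under 0.05 in all 7 fits held for 2374 genes (17.5%), against the 85 that held by adjusted p. Other scalings moved the share of calls that were higher from 44.9% to at most 49.8%. The cause of these changes was not tested.

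With a replicate block, 317 genes were called, 136 higher, 181 lower and 130 of at least 1. Libraries with the same number showed no clear shared deviation (r = 0.08, -0.152 and -0.099 across genes), and only those numbered 1 correlated best with their own number. Deviations from a mean of 3 libraries sum to 0 within a group, so this check cannot exclude a shared batch. The labels used here give no link between libraries of the same number. Here the mean level of lens genes separated the groups (1.57 to 2.98 in CNV, 5.66 to 7.20 in gel libraries), so a fit with it as a covariate has little left to compare: 0 genes were called, higher, lower or of at least 1, with 490 at an unadjusted p under 0.05 in limma and a smallest adjusted p of 0.844, and 149 of the 1266 calls had the opposite sign. Of 242 named or called list genes, 38 reversed, all in that fit, with log2 differences of Cryaa -1.22, Crybb2 -1.27, Crygs -2.44, Cryba1 -1.44, Cryba2 -0.37, Cryba4 -0.10, Tyrobp 0.048, Cfp 0.0044, C1qb 0.36, Casp4 0.052, Myd88 0.013, Ctss 0.15, Bub1 0.18, Tsc22d3 -0.29, Per1 -0.035, Jun 0.25, Gnat1 -0.036, Calb1 -0.042, Rdh10 0.042, Ncmap 0.088, C1qc 0.30, Fcer1g 0.050, Mpeg1 0.19, Trem2 0.43, Ms4a7 0.45, Fpr2 0.41, Pf4 0.22, Ccl9 0.36, Il1a 0.12, Tgfb1 0.10, Cryab -0.56, Angptl4 0.16, Ciart -0.13, Crybb3 -0.26, Grifin -0.34, Bfsp2 -0.024, Krt14 0.43, Krt19 0.26.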
